A study of Mus musculus with 21 samples.

Results

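The vascular lipases and the proteins that load, anchor, activate or block them were followed in whole liver across 21 mice, as 9 genes of the 25428 measured. The genes were picked by name: lipoprotein lipase (Lpl), hepatic lipase (Lipc), endothelial lipase (Lipg), the maturation factor Lmf1, the capillary anchor Gpihbp1, the inhibitor Angptl4 and the apolipoproteins Apoc2, Apoa5 and Apoc3. The platform annotation named 8 of these rows; the row of Lipc had no symbol there and was named through its gene number in the RefSeq gene table. The set was proposed with the genotype results of these same livers known, so genotype differences of the 9 genes are descriptions and carry no test here.

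Livers came from 10 mice with the Clec4g-icre driver (C57BL/6N-Tg(Clec4g-icre)1.1Sgoe) crossed to floxed Gata4 (STOCK Gata4tm1.1Sad/J), labelled gata4-lsec-ko, and from 11 sibling controls labelled wt. All were labelled whole liver and diet std; the sources used here give no age, no sex and no statement of whether controls carried the driver or the floxed alleles. Clec4g is a lectin gene of liver sinusoidal endothelium, so the deletion was directed at those cells while the RNA came from every cell of the liver. The sample numbers in the descriptions form 2 runs of consecutive values, with 5 controls and 4 knockouts in run 1 and 6 of each in run 2; the labels do not call these batches. Values were log2 RMA signals on Affymetrix arrays, 1 array per liver, with a median of 3.75 on every array. Levels of different genes were not set against each other, because probes differ in brightness. Gata4 itself differed by -0.19 ± 0.10 (SE, log2) and did not pass the test (adjusted p = 0.26, limma), and Clec4g fell by 0.92 ± 0.23 (adjusted p = 0.018, limma). Livers correlated with the mean of the others of their genotype at r from 0.986 to 0.994.

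Lipoprotein lipase splits the triglyceride of chylomicrons and very low density lipoproteins at the luminal face of capillaries, and the fatty acids enter the tissue behind them. It folds with the help of LMF1, is carried across the endothelial cell and held there by GPIHBP1, needs apolipoprotein C-II, is promoted by apolipoprotein A-V, and is curbed by apolipoprotein C-III and ANGPTL4. The adult liver makes little of it; hepatocytes make hepatic lipase instead, and endothelial cells make endothelial lipase, which prefers the phospholipids of high density lipoprotein.

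Lpl was far higher in knockout livers, while none of its partners was higher by more than 0.17 on the log2 scale. In run 1 the 5 controls read 6.28, 5.84, 7.56, 6.05 and 6.04 (log2 signal) and the 4 knockouts 9.36, 7.06, 9.97 and 10.4. In run 2 the 6 controls ran from 4.61 to 6.90 with a median of 5.44. The 6 knockouts of run 2 ran from 7.66 to 10.5 with a median of 9.37. The genotypes overlapped through a single pair of livers: knockout replicate 2, at 7.06, lay below control replicate 3, at 7.56, and 9 of 10 knockouts lay above every control. Controls averaged 5.88 ± 0.85 (SD, n = 11) and knockouts 9.14 ± 1.21 (SD, n = 10). The knockout minus control difference was 3.28 ± 0.42 (SE) with run as a term, a 9.72-fold higher signal. Run 1 gave 2.84 ± 0.65 and run 2 gave 3.61 ± 0.56, and the rise ranked 1 among those of all rows. The order of the group means was control run 2 (5.49 ± 0.82, SD), control run 1 (6.35 ± 0.69), knockout run 2 (9.10 ± 1.15) and knockout run 1 (9.19 ± 1.49). Neighbours of the same genotype in that order overlapped in range, and the control runs did not differ past the threshold, at -0.86 ± 0.58 (run 2 minus run 1, SE; adjusted p = 0.54, limma). In bulk tissue, more cells that express a gene and more transcript per cell cannot be told apart.

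**Figure D1:**
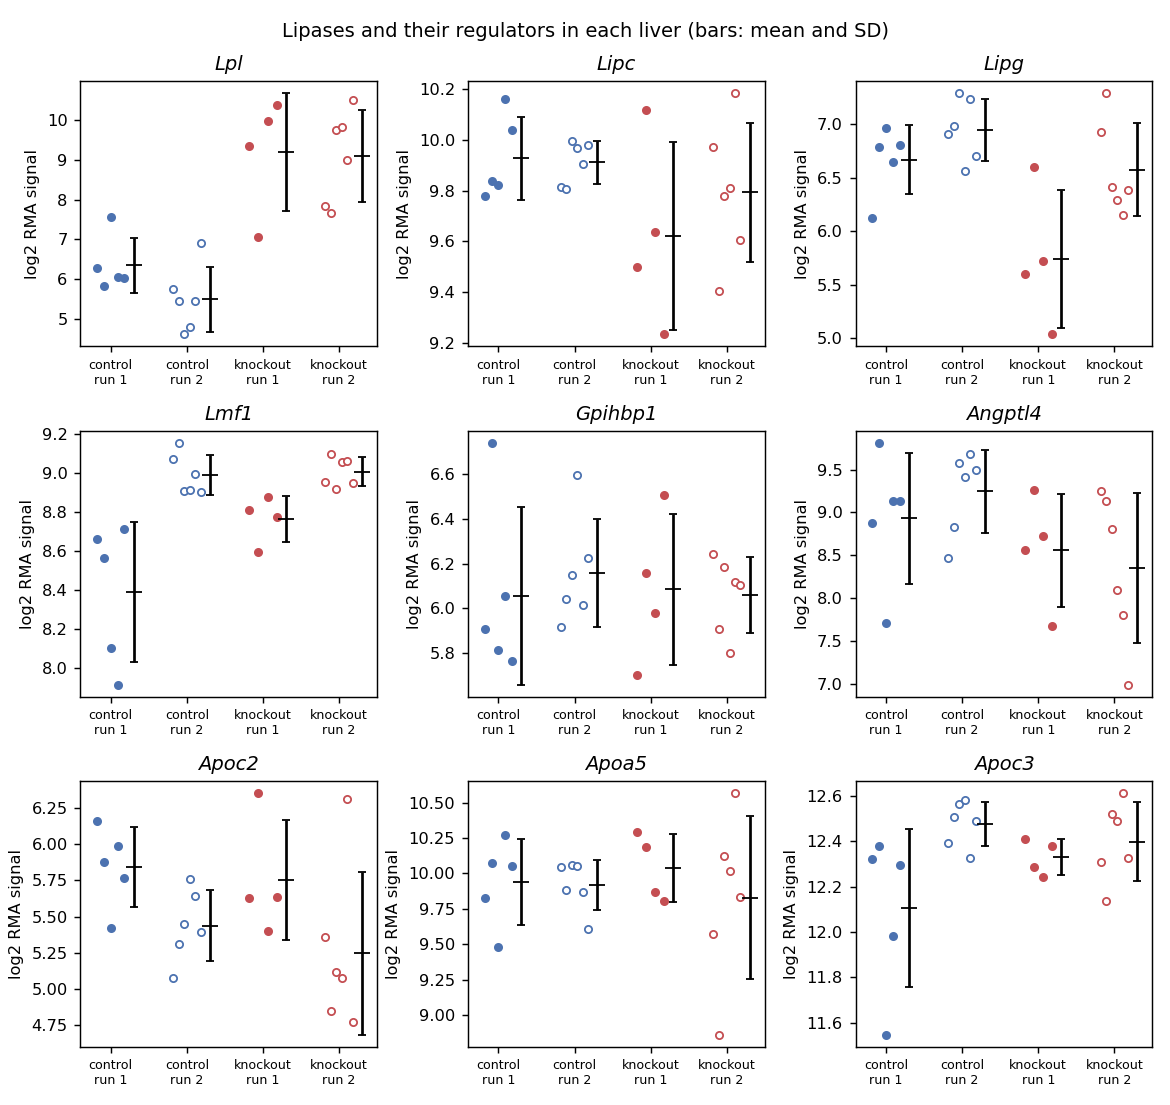
Log2 RMA signal (y axis) of each of the 9 genes in every liver, by genotype and run (x axis; filled points run 1, open points run 2), with the mean and SD of each group as black bars. Lpl separates the genotypes except for 1 knockout at 7.06 below 1 control at 7.56; the other panels overlap.

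At the threshold of an adjusted p under 0.05 over all rows, 1 of the 9 genes was higher (Lpl) and 1 lower (Lipg). Over all rows, 3.28% were higher and 4.05% lower at that threshold. Since the contrast was known when the genes were chosen, nothing is read from these counts. None of the 9 genes had every knockout above or below every control, a state found in 0.0905% and 0.0393% of all rows.

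The other lipases were lower or near their control level. Lipg, the endothelial lipase, read 6.13, 6.79, 6.97, 6.64 and 6.81 in the run 1 controls and 5.60, 6.60, 5.72 and 5.03 in the run 1 knockouts. In run 2 the controls ran from 6.56 to 7.29 (median 6.95) and the knockouts from 6.15 to 7.29 (median 6.40). The groups overlapped, and 9 of 10 knockouts were under their own run's control mean. The difference was -0.61 ± 0.18 (SE), -0.93 ± 0.26 in run 1 and -0.37 ± 0.23 in run 2. Its place past the threshold was narrow. It was lost without any 1 of 15 livers, without control replicates 3 and 4 and without the run term. Array weights, the replicate number as a block and either run alone also ended it. In run 1 alone 0 of the 9 genes were past the threshold, Lpl included, and 3 of all rows were. Lipc, the hepatocyte enzyme that works on remnants and high density lipoprotein, had the narrowest spread of the controls, with 9.78 to 10.2 (median 9.90). The knockouts ran from 9.23 to 10.2 (median 9.71), and 6 of 10 lay below the lowest control while 1 lay above the highest. The difference of Lipc was -0.20 ± 0.10 (SE), with an SD of 0.12 in controls and 0.31 in knockouts.

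Among the factors that make and hold the lipase, neither followed Lpl. Lmf1, which lets lipases fold in the endoplasmic reticulum, had a difference of 0.17 ± 0.09 (SE), with 0.37 ± 0.13 in run 1 and 0.02 ± 0.11 in run 2. It was 0.11 without control replicate 4 and 0.052 without control replicates 3 and 4. Gpihbp1, the protein that binds the lipase on capillary endothelium, ran from 5.77 to 6.74 (median 6.04) in controls and from 5.70 to 6.51 (median 6.11) in knockouts. The ranges of Gpihbp1 overlapped, and the difference was -0.04 ± 0.12 (SE).

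Angptl4, the inhibitor that unfolds the lipase and that fasting and PPAR signals raise, leaned to lower values in knockouts. The run 1 controls read 8.88, 9.81, 7.71, 9.13 and 9.13 and the run 1 knockouts 8.56, 9.26, 8.73 and 7.68. In run 2 the controls ran from 8.47 to 9.68 (median 9.45) and the knockouts from 6.99 to 9.25 (median 8.45). The groups overlapped, 2 of 10 knockouts lay below the lowest control and 8 of 10 under their own run's control mean. The difference was -0.67 ± 0.29 (SE), -0.37 ± 0.44 in run 1 and -0.90 ± 0.38 in run 2.

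The apolipoproteins that act on the lipase differed little. Apoc3, the inhibitor carried on very low density lipoprotein, had 0.05 ± 0.09 (SE), with 11.5 to 12.6 in controls and 12.1 to 12.6 in knockouts. Apoa5, which promotes lipolysis, had -0.01 ± 0.15, with 9.48 to 10.3 in controls and 8.86 to 10.6 in knockouts. Apoc2, the obligate activator, had -0.15 ± 0.16, with 5.07 to 6.16 in controls and 4.77 to 6.35 in knockouts. The ranges of all 3 genes overlapped, and in all 3 the sizes were at or below the standard error. Of the 9 genes, 6 differed by less than 0.25 on the log2 scale.

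**Figure D2:**
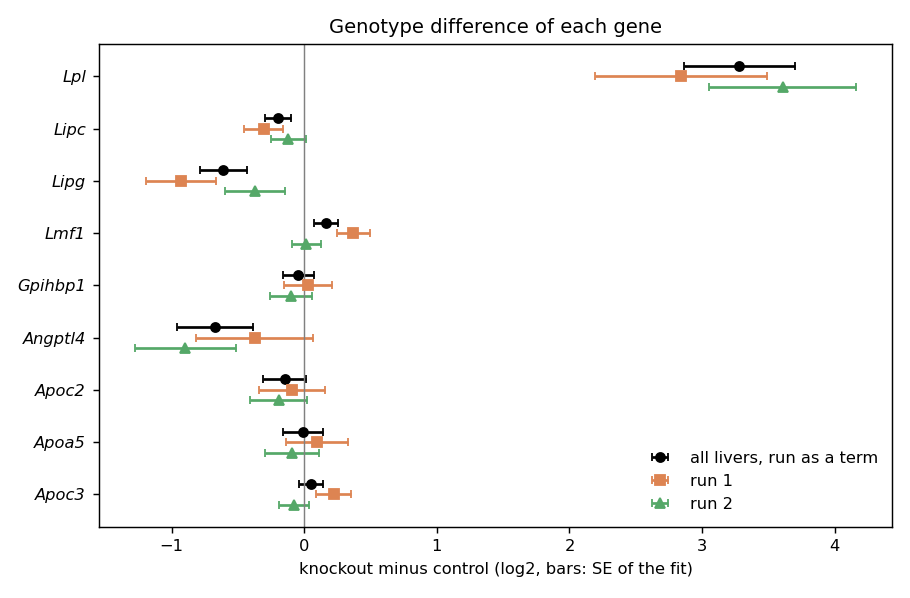
Knockout minus control on the log2 scale (x axis) for each gene (y axis), from all livers with run as a term and within each run; bars are standard errors of the fit. Lpl stands at 3.28, Lipg at -0.61 and Angptl4 at -0.67, and with all livers the 6 other genes lie within 0.25 of 0.

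Some measures did not enter the choice of the genes: how the genotype difference moved between the runs, and how controls differed between them. The genotype by run term passed for 0 of the 9 genes in limma (lowest adjusted p = 0.47), and for 0.0315% of all rows; 1 of the 9, Lmf1, had an unadjusted p under 0.05, as did 10.2% of all rows. For Lpl the run 2 difference exceeded the run 1 difference by 0.77 ± 0.85 (SE; adjusted p = 0.81, limma), a value that was 0.05 without knockout replicate 2. For Lipg it was 0.56 ± 0.35 (adjusted p = 0.62) and for Angptl4 -0.52 ± 0.58 (adjusted p = 0.81). In the controls alone, 1 of the 9 genes was higher in run 2 and 0 lower, beside 2.53% and 2.54% of all rows (5.07% in either direction). It was Lmf1, with 8.66, 8.56, 8.10, 7.92 and 8.71 in run 1 and 8.90 to 9.15 (median 8.95) in run 2. The runs did not overlap for Lmf1 in controls, and run 2 was higher by 0.60 ± 0.11 (SE; adjusted p = 0.0035, limma). Without control replicates 3 and 4, the lowest for Lmf1, the rise was 0.34 (adjusted p = 0.021). The control run value of Apoc3 was 0.37 ± 0.12 (adjusted p = 0.081), with replicate 3 as its lowest control, at 11.5. That value was 0.23 without control replicate 3 (adjusted p = 0.20), 0.14 without control replicates 3 and 4 (adjusted p = 0.56), and 0.44 without control replicate 2 (adjusted p = 0.039).

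The sign of the genotype difference was unequal between runs for 3 of the 9 genes (Gpihbp1, Apoa5 and Apoc3), beside 42% of all rows.

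Livers of 1 genotype and run differed among themselves, and the genes varied together in part. Among knockouts, replicates 2, 5 and 6 had the 3 lowest Lpl values, 7.06, 7.85 and 7.66. The same livers had the 3 highest knockout values of Angptl4, 9.26, 9.25 and 9.13, and of Lipg, 6.60, 6.92 and 7.29. Among controls, replicate 3 had the highest Lpl, 7.56, and the lowest Angptl4, 7.71. To measure this without the genotype difference, values were centred on the mean of their genotype and run and the 36 pairs of genes were correlated over 21 livers. None passed after adjustment, while 8 pairs had an unadjusted permutation p under 0.05 by Pearson and 7 by Spearman.

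Lpl and Angptl4 ran against each other, with r = -0.69 (permutation p = 0.0020, adjusted p = 0.063) and rho = -0.65 (permutation p = 0.0052, adjusted p = 0.13). Without the 2 livers farthest from the median of Lpl, r was -0.62. It was -0.54 in controls and -0.78 in knockouts. Lpl and Lipg had r = -0.64 (permutation p = 0.013, adjusted p = 0.093) and rho = -0.52 (permutation p = 0.034, adjusted p = 0.20), and r = -0.52 without the 2 farthest livers. That pair had -0.87 in knockouts and -0.05 in controls, a difference that was not tested. Apoa5 and Apoc3, which lie in the same apolipoprotein gene cluster, had r = 0.60 (permutation p = 0.0053, adjusted p = 0.064), rho = 0.49 (permutation p = 0.044, adjusted p = 0.23) and r = 0.50 without the 2 farthest livers.

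**Figure D3:**
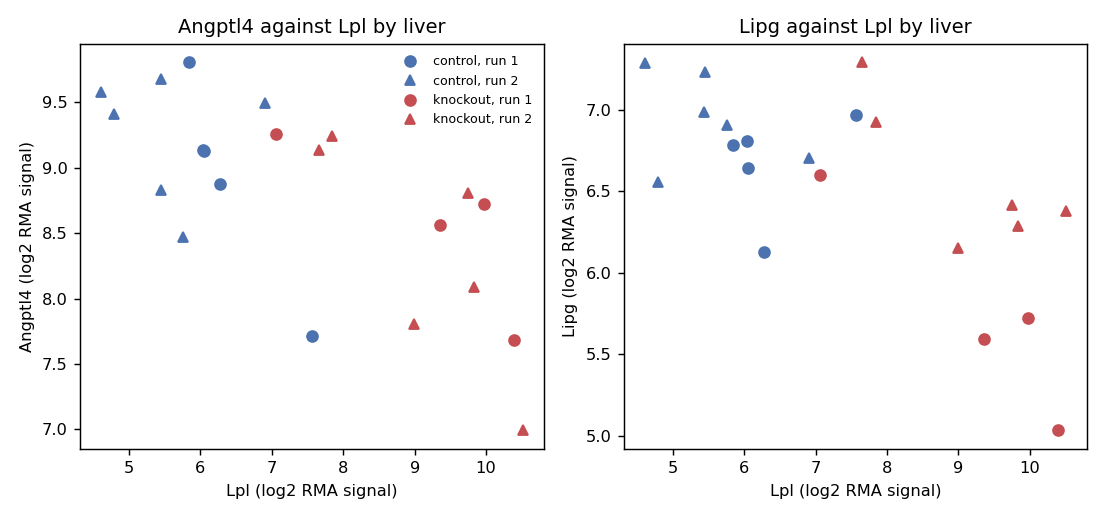
Log2 RMA signal of Angptl4 (left) and Lipg (right) against that of Lpl, 1 point per liver, coloured by genotype and shaped by run. Within the knockouts the 3 livers lowest in Lpl, at 7.06 to 7.85, are the 3 highest in both other genes.

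Hepatic lipase and Apoc2, both made by hepatocytes, had r = 0.71 (permutation p = 0.0035, adjusted p = 0.063) and rho = 0.61 (permutation p = 0.0090, adjusted p = 0.13). Without the 2 livers farthest from the median of Lipc, r was 0.46. It was 0.29 in controls and 0.81 in knockouts, a difference that was not tested. Lipc and Apoa5 had r = 0.60 (permutation p = 0.015, adjusted p = 0.093), rho = 0.45 (permutation p = 0.081, adjusted p = 0.32) and r = 0.52 without the 2 farthest livers. The third pair, Apoc2 and Apoa5, had r = 0.56 (permutation p = 0.062, adjusted p = 0.25), rho = 0.33 (permutation p = 0.19, adjusted p = 0.42) and r = 0.34 without the 2 farthest livers. The 250 bases before the start of these 3 genes are shown as a description, because their windows were available. GATA letters were searched because the deleted factor binds them. The deletion was directed at sinusoidal endothelium, while Lipc and Apoc2 are made by hepatocytes, and a link to these windows was not tested. The windows come from RefSeq on GRCm38.p6. The promoter table matched 4 of the 9 genes (these and Lmf1), but the windows of 1 chromosome were left out of the search. A gene on that chromosome could not match. For a gene with more than 1 start the first in the table is shown. Capitals mark the motifs searched on both strands: the GATA forms AGATAA and TGATAA, the nuclear receptor half-site AGGTCA and the TATA box TATAAA; the motifs did not overlap.
Lipc, chr9:70952222-70952471, - strand: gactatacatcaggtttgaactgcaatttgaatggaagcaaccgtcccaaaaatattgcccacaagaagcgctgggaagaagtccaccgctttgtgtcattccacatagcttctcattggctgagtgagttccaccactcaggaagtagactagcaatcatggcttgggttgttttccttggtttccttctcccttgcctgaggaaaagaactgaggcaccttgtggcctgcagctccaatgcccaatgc
Apoc2, chr7:19677942-19678191, - strand: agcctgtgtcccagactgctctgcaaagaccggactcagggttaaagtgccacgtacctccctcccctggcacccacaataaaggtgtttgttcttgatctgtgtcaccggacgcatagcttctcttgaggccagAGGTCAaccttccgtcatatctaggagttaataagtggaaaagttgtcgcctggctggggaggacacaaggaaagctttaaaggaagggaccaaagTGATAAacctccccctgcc
Apoa5, chr9:46268358-46268607, + strand: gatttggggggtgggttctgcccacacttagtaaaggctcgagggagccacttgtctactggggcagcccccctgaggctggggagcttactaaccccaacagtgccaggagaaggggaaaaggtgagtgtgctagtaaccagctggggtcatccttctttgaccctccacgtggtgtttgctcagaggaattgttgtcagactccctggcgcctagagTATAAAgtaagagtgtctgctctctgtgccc
The Lipc window held 0 of these motifs, the Apoc2 window 1 TGATAA and 1 AGGTCA, and the Apoa5 window 1 TATAAA. The window before the other listed start of Lipc held 2 AGGTCA. Of the 32851 windows of the same length that were searched, 7.94% held TGATAA, 9.99% AGATAA, 14.0% AGGTCA and 12.4% TATAAA. A match is a string of letters and not a measured site.

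**Figure D4:**
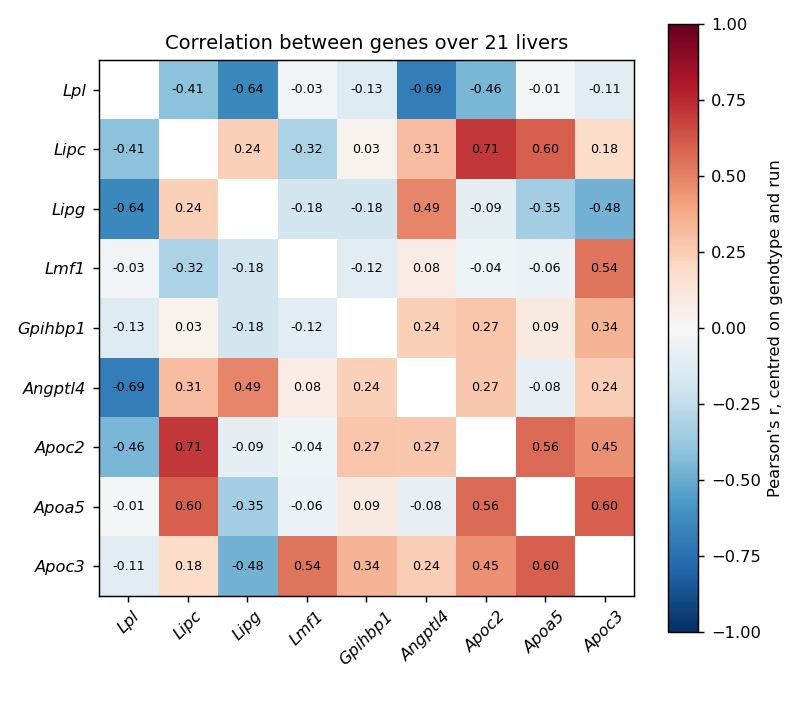
Pearson's r between the 9 genes over 21 livers after centring on genotype and run, from -1 (blue) to 1 (red). Lpl has its lowest values with Angptl4 (-0.69) and Lipg (-0.64), and the highest value is that of Lipc and Apoc2 (0.71).

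The rows whose centred values were most like those of Lpl over the 21 livers, among 20620 rows with a symbol, were Nid1 (r = 0.85), Pygb (0.85), Prom1 (0.83), Myh10 (0.83) and Cacul1 (0.82). Nid1 encodes the basement membrane linker nidogen, Pygb a glycogen phosphorylase, Prom1 the membrane protein prominin and Myh10 a non-muscle myosin heavy chain. These are the highest of many values and are given as a description. Those most like Lipg were Crat, the carnitine acetyltransferase (r = 0.92), Abhd6, a monoacylglycerol lipase (0.84), Plbd1 (0.81), Rfesd (0.81) and Nxpe2 (0.79). Those most like Angptl4 were Arrdc2 (0.84), Dnmbp (0.84), Glrx (0.83), the lipid droplet protein gene Plin5 (0.83) and Rab43 (0.81). Those most like Gpihbp1 were Mir411 (0.79), Rasd2 (0.79), Cisd3b (0.77), Klf14 (0.77) and Prkag2 (0.77).

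Other genes of intravascular lipolysis and fatty acid uptake were counted in 6 lists of 63 measured genes. Of these, 4 were higher and 5 lower in the knockouts, 6.35% and 7.94%, beside 3.28% and 4.05% of all rows. These shares are not matched for signal level: 5 list genes were below the array median in controls, beside 50.0% of all rows. With rows under the median of row means left out, 871 rows were higher and 1109 lower, among them 4 and 7 list genes. Nothing is read from the list shares being above those of all rows. Their median difference was -0.04, beside -0.01 over all rows. The 5 lower genes became 10 without knockout replicate 2, and the 4 higher genes 2 without any of some livers, knockout replicate 1 among them.

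Among 10 genes of lipase folding and proteolytic control, Lmf2, a relative of Lmf1, rose by 0.38 ± 0.10 (SE; adjusted p = 0.031, limma) and was above its run's control mean in 10 of 10 knockouts. Leaving out control replicate 9 or knockout replicate 1 ended that call (adjusted p = 0.060 and 0.052). Angptl8, an insulin-responsive gene of liver and fat, had a difference of 0.28 ± 0.28 (adjusted p = 0.62). The list median was 0.01. Of 11 other lipoprotein proteins, Apoa2 fell by 0.30 ± 0.07 (adjusted p = 0.010) in 10 of 10 knockouts and none rose. Its list had a median of -0.09.

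Of 11 remnant receptor and heparan sulfate genes, 1 rose, Scarb1, the high density lipoprotein receptor. Controls of Scarb1 ran from 9.46 to 10.2 (median 9.93) and knockouts from 10.3 to 10.6 (median 10.4), with every knockout above every control. The rise was 0.47 ± 0.07 (SE; adjusted p = 6.03e-04, limma), and the median of the list was 0.17. Of 10 fatty acid uptake genes, 1 rose (Fabp4) and 2 fell (Slc27a5 and Got2). Fabp4, a fatty acid binding protein of adipocytes, macrophages and capillary endothelium, ran from 4.33 to 6.89 (median 4.91) in controls and from 5.53 to 8.52 (median 6.98) in knockouts. It overlapped, with 5 of 10 knockouts above every control, and rose by 1.84 ± 0.32 (adjusted p = 0.0023), a 3.59-fold higher signal. Slc27a5, a bile acid and fatty acid ligase of hepatocytes, fell by 0.29 ± 0.06 (adjusted p = 0.0092) and Got2, an aspartate aminotransferase, by 0.18 ± 0.05 (adjusted p = 0.032). Leaving out any 1 of 7 livers ended the call of Got2 (its adjusted p then reached 0.063 at most). Cd36, the fatty acid translocase, had a difference of -0.25 ± 0.21 (adjusted p = 0.53). The list median was -0.18.

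Of 10 transcriptional regulators of lipase genes, 1 rose, Rxra, the partner of PPAR and LXR receptors, by 0.14 ± 0.04 (SE; adjusted p = 0.046, limma); that call was lost without any 1 of 17 livers. Pparg had a difference of -0.26 ± 0.19 (adjusted p = 0.47) and Ppara -0.18 ± 0.10 (adjusted p = 0.33). The list median was -0.12. Of 11 other lipases and relatives, 1 fell, the carboxylesterase gene Ces1d, by 0.90 ± 0.20 (adjusted p = 0.010), in 9 of 10 knockouts. Pnlip, Pnliprp1, Pnliprp2, Liph and Lipi were below the array median of 3.75 in both genotypes, and the list median was -0.02.

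**Figure D5:**
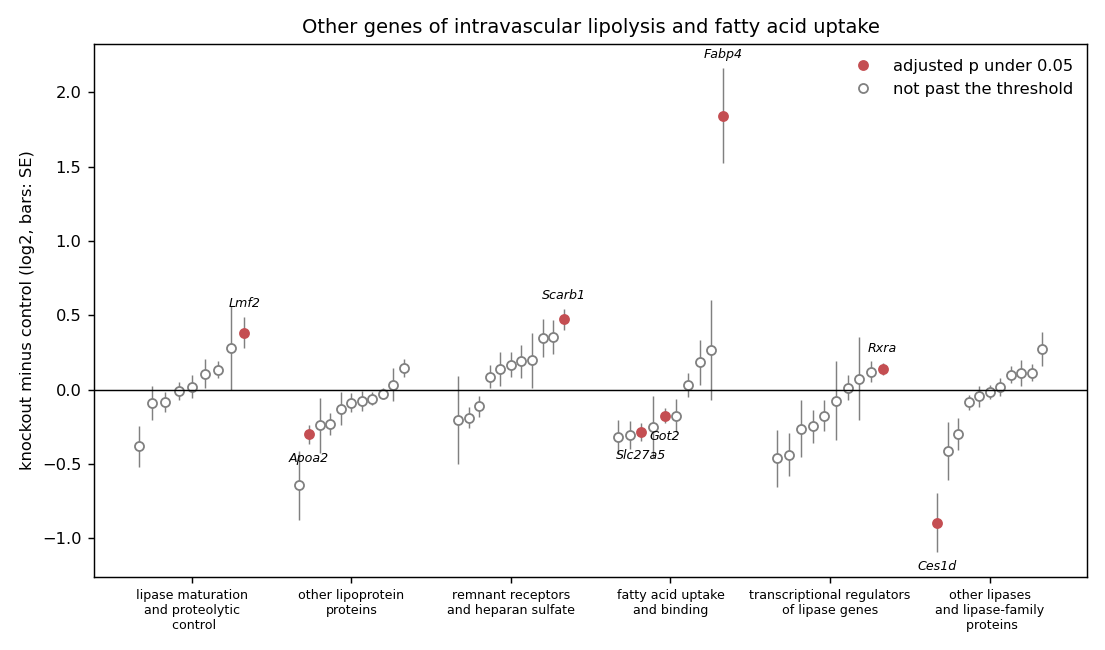
Knockout minus control on the log2 scale (y axis, bars SE) for the genes of 6 lists (x axis), except 1 that is not reported here; filled points passed an adjusted p under 0.05 and are named. Fabp4 stands highest at 1.84 and Ces1d lowest at -0.90.

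Markers of other cells that make or border on Lpl moved beside it in part. Over all rows, 3.28% were higher and 4.05% lower, the shares to set beside the marker counts here and in the next paragraph. Of 8 continuous capillary endothelial markers, 4 were higher and 0 lower, with mean log2 signals per liver of 3.83 to 4.26 in controls and 4.47 to 5.23 in knockouts. The risers were Esm1 (2.05 ± 0.25, SE), Emcn (0.999 ± 0.24), Plvap (0.86 ± 0.12) and Cd34 (0.77 ± 0.11), while Ly6c1, Aplnr and Esm1 were below the array median in controls. Aplnr (0.35 ± 0.11, adjusted p = 0.055, limma) and Ly6c1 (0.07 ± 0.06, adjusted p = 0.54) did not pass. Neither did Vwf (-0.16 ± 0.12, adjusted p = 0.47) and Rgcc (-0.09 ± 0.12, adjusted p = 0.70), which leaned the other way. Of 8 monocyte-derived and lipid-associated macrophage markers, 4 were higher (4.88 to 5.66 against 5.25 to 6.28): Ccr2, Spp1, Cd9 and Gpnmb. Their list mate Trem2, a receptor of lipid-associated macrophages, had a difference of 0.05 ± 0.11 (SE; adjusted p = 0.87, limma). Of 8 Kupffer cell markers, 5 were higher (5.70 to 7.98 against 7.13 to 8.01): C1qa, C1qb, C1qc, Cd5l and Vsig4. Their list mates did not pass: Clec4f (0.30 ± 0.22, adjusted p = 0.46), Timd4 (0.46 ± 0.21, adjusted p = 0.21) and Marco (0.42 ± 0.39, adjusted p = 0.59). Of 8 stellate cell markers 4 were higher (6.79 to 7.33 against 7.21 to 7.67). Of 7 sinusoidal endothelial markers 5 were lower (6.66 to 8.01 against 6.41 to 7.36). The rest did not pass: Oit3 (-0.45 ± 0.19, adjusted p = 0.15) and Lyve1, which leaned the other way (0.58 ± 0.31, adjusted p = 0.27). Of 6 foetal hepatocyte markers 1 was higher, H19, by 1.76 ± 0.52 (adjusted p = 0.043), with 3.38 to 3.66 in controls and 3.54 to 4.37 in knockouts for the list, and 5 of its 6 genes were below the array median in controls. Their part in the rise of Lpl was not tested.

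Adipocytes and muscle are rich in Lpl. Of 8 adipocyte markers 0 were higher and 1 lower (Cfd), with means of 3.40 to 3.70 in controls and 3.33 to 3.66 in knockouts. Adipoq read 2.73 in both genotypes and Plin1 3.53 and 3.54, below the array median, as were 6 of the 8 in each genotype. Retn had a difference of 0.16 ± 0.06 (SE; adjusted p = 0.13, limma) and Lep one of 0.12 ± 0.05 (adjusted p = 0.16). Of 8 muscle markers 0 were higher and 0 lower (3.60 to 3.97 against 3.53 to 3.78), with 4 of 8 below the array median. Of 7 hepatocyte markers 0 passed in either direction, and their mean ran from 12.9 to 13.1 in controls and from 13.0 to 13.1 in knockouts. Their control means lay at percentile 99.3 of all rows or above. RMA gives every array the same distribution, which leaves the highest rows little room to differ. The median of Alb was 13.75 in both genotypes and that of Ahsg 13.5, so nothing is read from this count.

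Within genotype and run, 4 genes (Lpl, Lipg, Angptl4 and Gpihbp1) were correlated with the 9 marker scores, 36 relations of which 0 passed after adjustment. By Pearson and by Spearman, 7 had an unadjusted permutation p under 0.05. Lpl had r = 0.58 with the continuous endothelial score (permutation p = 0.0056, adjusted p = 0.067) and rho = 0.64 (permutation p = 0.0028, adjusted p = 0.10), and r = 0.46 without the 2 livers farthest in Lpl. With the foetal hepatocyte score it had r = 0.66 (permutation p = 0.0050, adjusted p = 0.067), rho = 0.59 (permutation p = 0.013, adjusted p = 0.15) and r = 0.50 without those livers. That r was 0.12 in controls and 0.80 in knockouts, and 0.59 and 0.58 for the continuous endothelial score. In knockouts H19 had an SD of 1.79, against 0.12 to 0.19 for its list mates. The foetal hepatocyte score of knockouts therefore mostly followed that 1 gene. With the adipocyte score the sign was negative, r = -0.45 (permutation p = 0.049, adjusted p = 0.25), rho = -0.55 (permutation p = 0.018, adjusted p = 0.16) and r = -0.38, with -0.86 in controls and -0.20 in knockouts. Angptl4 had r = -0.66 with the Kupffer cell score (permutation p = 0.0025, adjusted p = 0.067), rho = -0.60 (permutation p = 0.0087, adjusted p = 0.15) and r = -0.51 without the 2 livers farthest in Angptl4, with -0.90 in controls and -0.43 in knockouts. With the continuous endothelial score Angptl4 had r = -0.63 (permutation p = 0.0077, adjusted p = 0.069), and -0.34 without those livers. With the adipocyte score it had r = 0.57 (permutation p = 0.017, adjusted p = 0.13), and 0.36 without them. Lpl and the stellate cell score had r = 0.48 (permutation p = 0.042, adjusted p = 0.25), with 0.68 in controls and 0.37 in knockouts. These differences between genotypes were not tested.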

How the data were processed

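Total RNA of whole liver from 21 mice was made into biotinylated cRNA for Affymetrix arrays (1 per liver), per the labels. The deposited table held log2 values made by the authors with RMA, a method that corrects background, gives every array the same distribution and joins the probes of a gene, per the submitters' processing notes (version: not given in the sources used here). No array design or genome build was named there either. Scanner files were not used here, so low values can be close to background, and the number of arrays limits the precision. The platform annotation named 24705 of 25428 rows; 723 had no symbol there. Lipc was found through RefSeq (assembly GRCm38.p6).

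Genotype and run were terms in lmFit and eBayes of limma 3.58.1 (R 4.3.3) over all 21 arrays and all rows, without a filter, with Benjamini-Hochberg adjustment and a threshold of 0.05; fits in 4 groups gave the genotype by run and control run contrasts, with the same adjustment. Correlations used values centred on genotype and run, with 100000 two-sided permutations within genotype and run and adjustment over 36 pairs, and over 36 marker relations that were added later. The fit was tested on simulated data. Named were the 9 genes, Gata4 and Clec4g, up to 3 genes per list with the lowest p among those past the threshold (else the 1 with the lowest p), and the 5 rows most like each of 4 genes, without predicted genes; other list members, markers included, were named after their values were seen, and 1 list gene that the rule named is not reported here, though it stays in the counts. The members and lists were chosen with earlier results of these data known. Labels call the samples biological replicates, so each array was taken as 1 animal. Alternatives were other normalisations, filters, priors and weights, no run term, each run alone, the replicate number as a block, and each liver left out.

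The replicate numbers gave no clear sign of pairing the livers: deviations from the group means correlated over 0.1 in 2 of 10 same-numbered pairs. A pairing with a small effect could go unseen in this check.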

Additional observations from a re-analysis of the deposited data

How the results depend on the processing

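Lpl stayed between 3.11 and 3.59 (log2, knockout minus control) when single livers were left out. Genes higher by genotype numbered 834 and lower 1030, 1864 together; without single livers they ranged from 565 to 981, from 629 to 1471 and from 1194 to 2389. Run 1 alone gave 3 calls (2 higher, 1 lower) and 0 and 0 list genes, run 2 alone 552 higher genes. The replicate number as a block gave 602 lower genes and 3.53 for Lpl; no control liver was most like the knockout of its own number (0 of 10). Without the run term 2 list genes were higher. List genes ranged from 2 to 5 higher and 4 to 10 lower without single livers.

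Genes with a genotype by run term past the threshold numbered 8, and 5 with an intensity trend and robust prior, 0 without control replicates 3 and 4 (the arrays least like their group, a choice made after seeing the data) and 0 to 20 without single livers; the cause was not tested. Control run calls numbered 1289, 519 without those 2 arrays and 896 to 1412 without single livers. Of uncalled run values, Lipc was 0.026 and Angptl4 -0.030 without those arrays, against -0.016 and 0.31. Without single livers the signs of Lipc (-0.053 to 0.042) and Apoa5 (-0.14 to 0.062) between control runs, and of the genotype by run values of Apoc2 (-0.31 to 0.099), Gpihbp1 (-0.30 to 0.013) and Apoa5 (-0.34 to 0.0033), were not stable. No pair of the 9 genes passed under any of the 4 alternatives for correlations.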
